A study of Mus musculus with 10 samples.

Results

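Jarid2 and 9 genes of polycomb repressive complex 2 (PRC2), namely Ezh1, Ezh2, Suz12, Eed, Rbbp4, Rbbp7, Mtf2, Phf19 and Aebp2, were examined in bone marrow (BM) of mice rebuilt from fetal liver hematopoietic stem cells (HSCs). The members were chosen by name, as Jarid2 and other known subunits of the complex, and each was read from the probe set that the array annotation assigns to that gene alone, the brightest one where there were several. All 10 members were measured, among 19938 genes with such a probe set, and they had 12 probe sets in all because Eed and Rbbp7 had 2 each. Every mouse was C57BL6. VD(−) HSC recipients had received fetal liver HSCs of embryos carried by vitamin D-deficient dams, and VD(+) HSC recipients those of embryos carried by vitamin D-sufficient dams. All recipients were vitamin D-sufficient and lethally irradiated, so that BM of both groups is donor-derived blood in an irradiated host, and the labels give mice of both sexes aged 8 weeks. They do not say whether that is the age at transplant or at collection, and the study's text and 1 of its legends differ on how long after transplant BM was taken. Each group had 5 arrays of total RNA, 3 of single samples (replicates 1 to 3) and 2 of pools. It is not stated whether a pool includes RNA from the mice measured singly, and every p-value here reflects array-to-array spread, which may be technical. One label field names BM macrophages where the others name BM. The levels are log2 signals, so that a difference of 1 is a doubling, and they are compared between groups for 1 probe set at a time.

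PRC2 places methyl groups on lysine 27 of histone H3, a mark of silenced genes. Ezh1 or Ezh2 is the enzyme, Suz12 is the scaffold, Eed binds the finished mark and activates the enzyme, and Rbbp4 and Rbbp7 are histone-binding proteins that other chromatin complexes share. Mtf2 and Phf19 guide one form of the complex to CpG-rich DNA, whereas Jarid2, a Jumonji-family protein without demethylase activity, and Aebp2, a zinc finger protein, belong to the other. In blood, Ezh2 is the form of dividing progenitors, among them pro-B cells, and Ezh1 is more prominent in resting cells.

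Between VD(−) and VD(+) HSC recipient BM, 0 of the 10 members passed limma's test, either at an adjusted p or at an unadjusted p under 0.05. Jarid2 had a log2 difference of −0.077, less than limma could call, and its arrays were closer to each other than those of nearly all genes of like brightness. Mtf2 and Eed had the largest positive differences and Ezh1 the largest negative one. Of all 35556 probe sets 0.118% passed the adjusted p and 7.09% the unadjusted p. The median log2 difference of the 10 members was 0.026, beside −0.0028 over all probe sets, with 6 members above 0 and 4 below. In bulk RNA of this kind, fewer cells of a type and less RNA per cell cannot be told apart.

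The promoter windows of Jarid2, Ezh2 and Ezh1 are shown because the results turn on these genes, Jarid2 because its call depends on the test, and Ezh2 and Ezh1 for moving in opposite directions between arrays. They are RefSeq windows of GRCm38.p6, printed 5′ to 3′ on the gene's strand for the 250 bases before the annotated start and the 30 after it. Jarid2 has 2 annotated starts 497 bases apart on the plus strand (chr13:44730524-44730803 and chr13:44731021-44731300), Ezh2 lies at chr6:47595001-47595280 and Ezh1 at chr11:101226434-101226713, both on the minus strand. Capitals mark a CCAAT box on either strand (ATTGG on the other), and, in Ezh2, the E2F-type motif TTTGGCGC.
Jarid2, upstream start: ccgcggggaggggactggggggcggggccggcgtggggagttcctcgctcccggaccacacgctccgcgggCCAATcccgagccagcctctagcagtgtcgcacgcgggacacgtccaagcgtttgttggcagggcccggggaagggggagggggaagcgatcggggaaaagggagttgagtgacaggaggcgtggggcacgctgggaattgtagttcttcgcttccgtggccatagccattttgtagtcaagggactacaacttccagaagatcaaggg
Jarid2, downstream start: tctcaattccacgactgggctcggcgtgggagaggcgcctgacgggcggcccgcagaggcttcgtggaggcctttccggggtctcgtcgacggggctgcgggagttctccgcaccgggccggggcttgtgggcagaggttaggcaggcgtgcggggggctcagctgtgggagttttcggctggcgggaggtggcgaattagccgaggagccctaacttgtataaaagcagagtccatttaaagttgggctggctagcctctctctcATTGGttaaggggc
Ezh2: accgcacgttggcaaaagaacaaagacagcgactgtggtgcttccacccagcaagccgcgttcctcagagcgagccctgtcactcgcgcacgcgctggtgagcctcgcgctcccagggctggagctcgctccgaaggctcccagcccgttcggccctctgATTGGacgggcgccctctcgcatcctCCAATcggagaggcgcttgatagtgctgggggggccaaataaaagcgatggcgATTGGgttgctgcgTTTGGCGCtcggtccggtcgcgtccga
Ezh1: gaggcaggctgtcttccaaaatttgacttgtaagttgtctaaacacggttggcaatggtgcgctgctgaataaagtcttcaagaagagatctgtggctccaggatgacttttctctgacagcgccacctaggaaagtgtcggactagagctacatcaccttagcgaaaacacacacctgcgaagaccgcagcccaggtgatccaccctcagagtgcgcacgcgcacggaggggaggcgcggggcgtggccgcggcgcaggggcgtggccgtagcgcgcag

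All 10 members had windows in the RefSeq table, 14 in all. An E2F-type motif, searched on both strands as TTTCCCGC, TTTGGCGC, TTTCGCGC or TTTGCCGC in the full 300 bases, was found in Ezh2, Suz12 and Phf19, and in 2.26% of all 32851 windows. CCAAT, a motif of NF-Y, was found in windows of 8 members and in 37.4% of all windows. It occurs 3 times in Ezh2, once in each Jarid2 window and not in Ezh1. In Mtf2 it lay only in window 2 of 2, and in Aebp2 only in window 3 of 3. Members with several windows have more chances of a match, so these counts of genes are not like the shares of windows. The direct repeat that the vitamin D receptor is known to bind was searched loosely as NGNTCANNNNGNTCA on both strands. It was found in 0 of the 14 windows, beside 0.7% of all windows. Both Jarid2 windows are rich in CpG, with 24 and 23 CpG against a median of 7 over all windows, and Ezh2 and Ezh1 have 31 and 23. These are matches of letters, and no binding or methylation was measured on these arrays.

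Jarid2 read 7.60, 7.61 and 7.65 in replicates 1 to 3 and 7.61 and 7.62 in the pools of VD(−) HSC recipients, against 7.62, 7.71 and 7.75 in replicates 1 to 3 and 7.66 and 7.73 in the pools of VD(+) HSC recipients. VD(−) replicate 3 lay above VD(+) replicate 1, so the groups overlapped, and the other 4 VD(−) arrays lay below every VD(+) array, pool 2 only narrowly at 7.615 against 7.617. The means were 7.62 ± 0.02 in VD(−) and 7.69 ± 0.05 in VD(+) HSC recipients (SD, n = 5 each). The log2 difference was −0.077 with a standard error of 0.056, a ratio of 0.948 with a 95% interval of 0.871 to 1.03, and the limma adjusted p was 0.81 (Benjamini-Hochberg over all probe sets). Single samples and pools gave similar differences of −0.074 and −0.082.

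**Figure D1:**
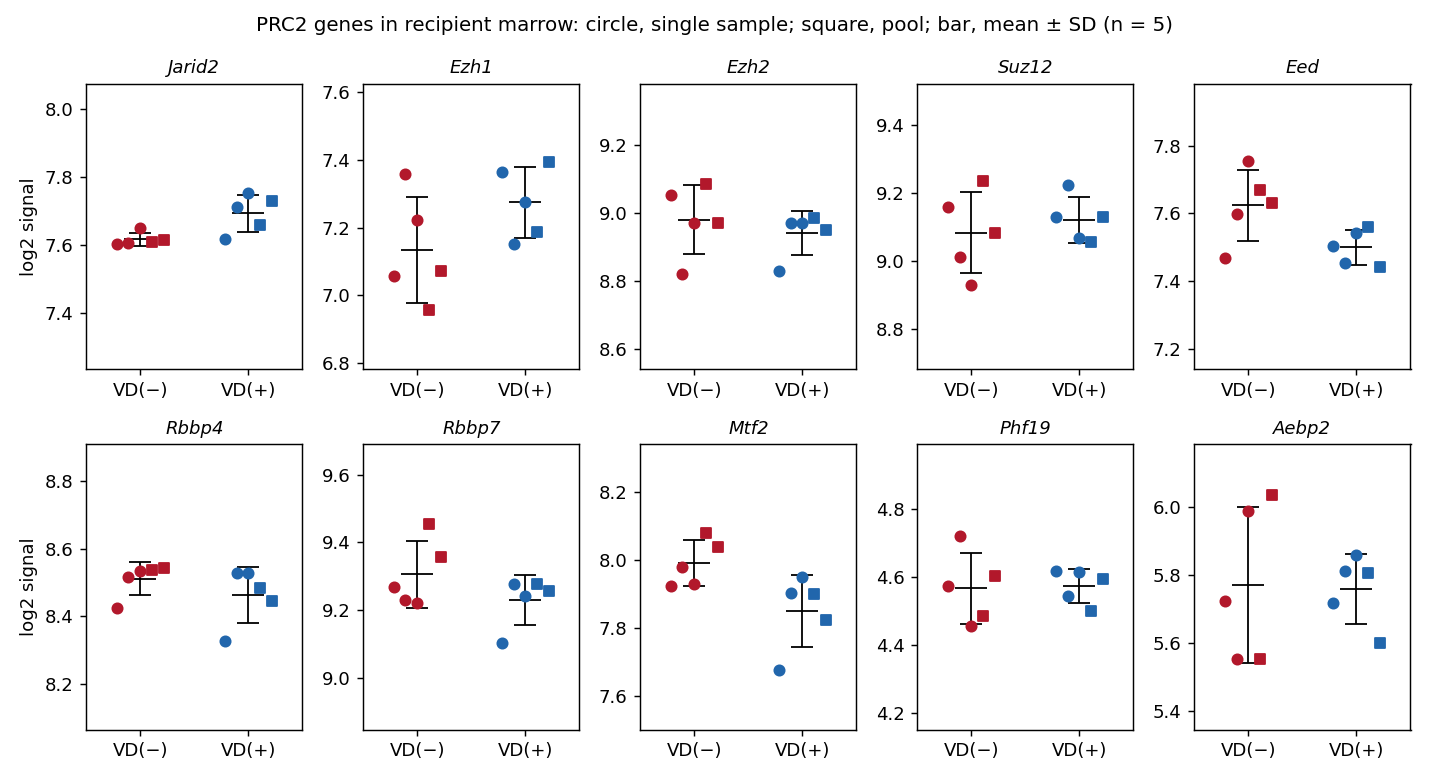
Log2 signal of each PRC2 gene (y axis, the same span of 0.84 in every panel) in the 5 arrays of VD(−) and the 5 of VD(+) HSC recipient BM, circles for single samples and squares for pools, with bars for mean ± SD. The arrays of every gene overlap between the groups, Jarid2 has the tightest VD(−) arrays (7.60 to 7.65) and Aebp2 the widest (5.55 to 6.03).

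The call on Jarid2 rests on how the spread is estimated. By its own arrays alone the pooled SD of Jarid2 was 0.041, and only 0.2% of the 3005 probe sets within 0.5 of its brightness had a smaller one. Limma draws each SD towards a value common to all probe sets, 0.161, which gave the standard error above, where the arrays of Jarid2 alone gave 0.026. With the smaller value, the methods' t-test fell under an unadjusted p of 0.05, and after adjustment over all probe sets its p was 0.646. The exact permutation test of the difference in means, two-sided, gave p = 0.0159, where the smallest that 5 arrays against 5 allow is 0.00794. Jarid2 was named by the study from these arrays, through an enriched Jarid2 pathway signature among the changed genes, so none of these p-values is independent evidence. The study also reported lower Jarid2 by RT-PCR in recipient BM, donor HSCs and adipose macrophages. It further reported more CpG methylation in the first intron of Jarid2 in recipient BM, and insulin resistance in recipients of HSCs with Jarid2 deleted. These arrays include none of those measurements. The methods took genes with an unadjusted p under 0.05 together with a minimum size of change, which for falls is a ratio below 0.94, and the ratio of 0.948 lies above that bound.

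The smallest difference that limma would have called for Jarid2, given its standard error, was 0.123 at an unadjusted p of 0.05, a fall of 8.16%. For an adjusted p of 0.05 it was 0.363, a fall of 22.3%, since in these arrays only probe sets with an unadjusted p of at most 4.86e-05 passed. A true difference of 0.17 would be found at the unadjusted threshold, and one of 0.43 at the adjusted one, with a power of 80%. Using the SD of Jarid2 alone, 0.06 was enough for an unadjusted p of 0.05. The 95% interval of the difference ran between −0.20 and 0.046.

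**Figure D2:**
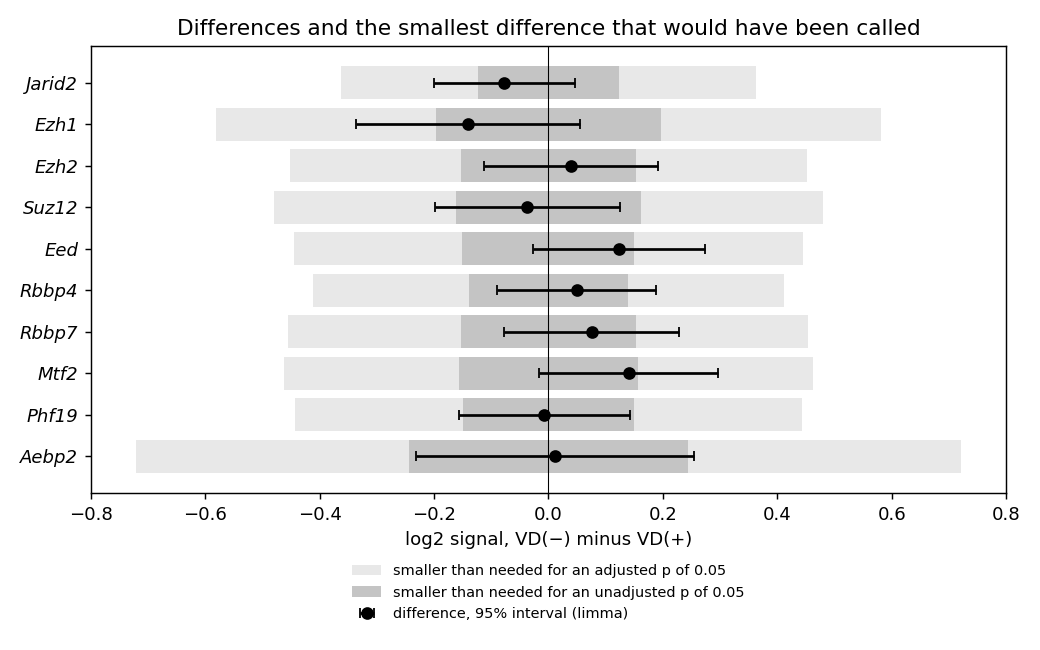
Log2 difference, VD(−) minus VD(+), of each PRC2 gene with its 95% interval from limma (points and bars), over the range too small to reach an unadjusted p of 0.05 (dark grey) or an adjusted p of 0.05 (light grey). Every point lies inside the dark range, which is narrowest for Jarid2 (0.123) and widest for Aebp2 (0.243).

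Neither enzyme passed the test. Ezh2 read 9.05, 8.82 and 8.97 in replicates 1 to 3 and 9.08 and 8.97 in the pools of VD(−) HSC recipients, against 8.83, 8.97 and 8.97 in replicates 1 to 3 and 8.98 and 8.95 in the pools of VD(+) HSC recipients. The highest values were VD(−) replicate 1 and pool 1, and VD(−) replicate 2 and VD(+) replicate 1 were the lowest. The log2 difference was 0.040 (SE 0.069, limma adjusted p = 0.935), and the smallest callable one was 0.152 unadjusted and 0.451 adjusted. In Ezh2, 4 arrays held exactly the same value, 8.97, and 1.68% of all probe sets had 4 or more equal arrays.

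Ezh1 read 7.06, 7.36 and 7.22 in replicates 1 to 3 and 6.96 and 7.07 in the pools of VD(−) HSC recipients, against 7.36, 7.15 and 7.28 in replicates 1 to 3 and 7.19 and 7.39 in the pools of VD(+) HSC recipients. The 3 lowest of the 10 were VD(−) replicate 1 and both VD(−) pools, and VD(−) replicates 2 and 3 lay among the VD(+) arrays. The log2 difference was −0.14 (SE 0.089, limma adjusted p = 0.796), with −0.051 in the single samples and −0.275 in the pools. Without VD(−) replicate 2 it was −0.196, under an unadjusted limma p of 0.05 but with an adjusted p of 0.726. Only that 1 of the 10 fits that left out 1 array each passed, and they spanned −0.196 to −0.097.

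Ezh1 and Ezh2 moved in opposite directions from array to array. After the mean of each group was taken off, their Pearson correlation over the 10 arrays was −0.83, given as a description since both values come from the same arrays and the same normalization. The pattern came with other array-wide differences within the VD(−) group. The mean log2 signal of 3 genes of the Y chromosome (Kdm5d, Eif2s3y and Uty) was 6.64 in VD(−) replicate 1, 6.80 in pool 1 and 5.31 in pool 2, against 2.35 and 2.44 in VD(−) replicates 2 and 3 and 2.25 to 2.56 in the 5 VD(+) arrays. Xist, the RNA that coats an inactive X, read 7.76, 8.14 and 9.83 in the 3 arrays with Y-linked signal and 10.08 to 10.33 in the other 7. By the methods the donor cells were pooled from embryos of both sexes. All 5 VD(+) arrays and VD(−) replicates 2 and 3 nonetheless lacked that Y-linked signal, and the reason was not tested. Since the signal occurred in VD(−) arrays alone, sex of the cells and group were in part confounded. Vpreb1, a part of the surrogate light chain of pro-B cells, read 9.36, 7.54 and 6.11 in replicates 1 to 3 and 9.88 and 7.90 in the pools of VD(−) HSC recipients, against 7.25 to 8.13 in the VD(+) arrays. Thus the 2 VD(−) arrays with the highest Ezh2 also had the highest Vpreb1 and Y-linked signal of all 10.

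With that Y signal minus the level of Xist as a covariate, the difference of Ezh1 was −8.0e-05 and that of Ezh2 −0.045. Without the 3 VD(−) arrays that carried Y-linked signal it was 0.016 for Ezh1 and −0.044 for Ezh2. Jarid2 kept its direction in both fits, at −0.064 and −0.066. The mean over 10 genes of pro-B and pre-B cells spanned 6.07 to 7.85 in the VD(−) arrays and 6.68 to 7.21 in the VD(+) arrays, and the part of these cells in the levels of Ezh1 and Ezh2 was not tested.

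**Figure D3:**
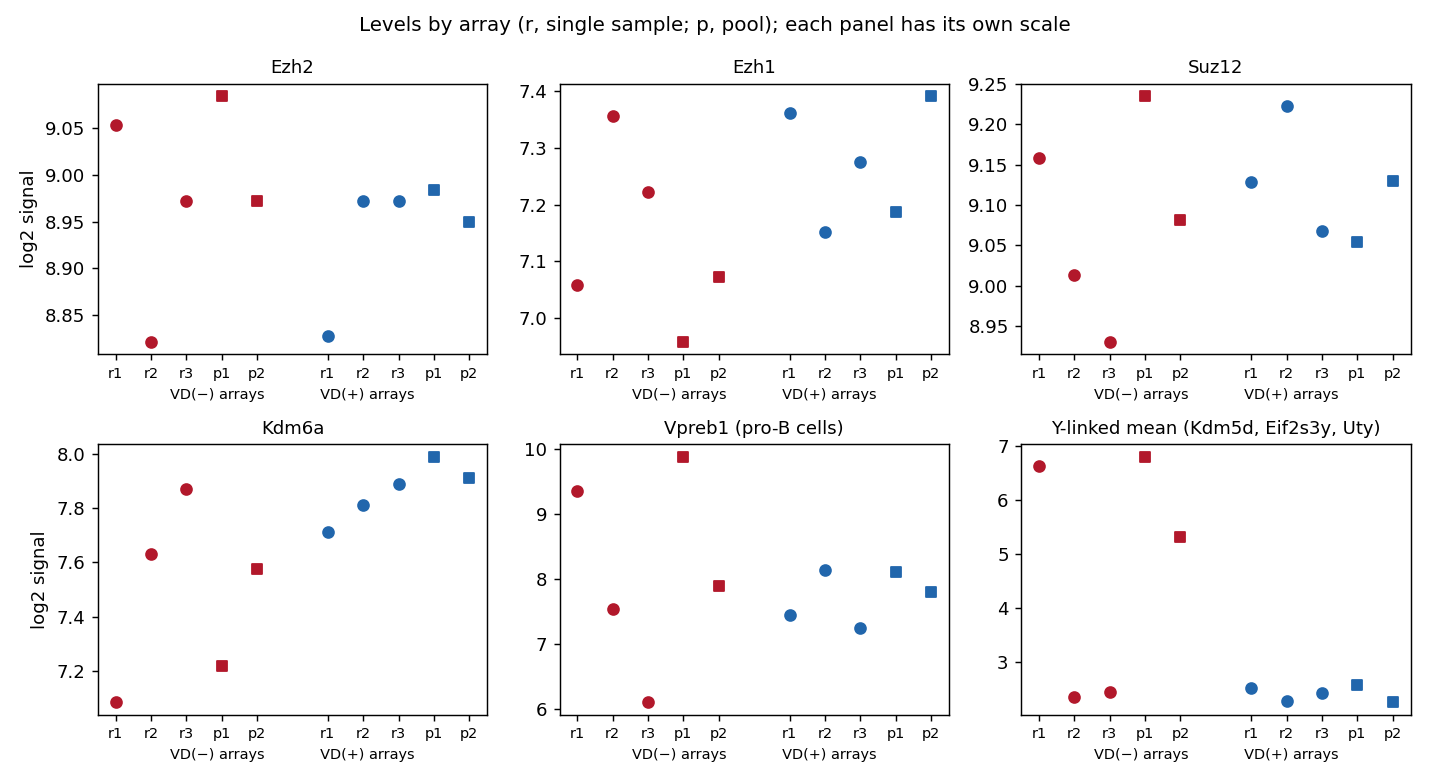
Log2 signal (y axis, own scale per panel) of Ezh2, Ezh1, Suz12, Kdm6a, Vpreb1 and the mean of 3 Y-linked genes in each array, VD(−) left and VD(+) right, circles for single samples and squares for pools. VD(−) replicate 1 and pool 1 hold the 2 highest values of Ezh2 and Vpreb1 and the 2 lowest of Kdm6a.

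Of the other core subunits, Suz12, the scaffold, read 9.16, 9.01 and 8.93 in replicates 1 to 3 and 9.24 and 9.08 in the pools of VD(−) HSC recipients, against 9.13, 9.22 and 9.07 in replicates 1 to 3 and 9.05 and 9.13 in the pools of VD(+) HSC recipients. Its VD(−) arrays enclosed all 5 VD(+) arrays. The log2 difference was −0.037 (SE 0.073, limma adjusted p = 0.945) and changed sign between single samples, at −0.106, and pools, at 0.066.

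Eed, the reader of the mark, read 7.47, 7.60 and 7.76 in replicates 1 to 3 and 7.67 and 7.63 in the pools of VD(−) HSC recipients, against 7.50, 7.45 and 7.54 in replicates 1 to 3 and 7.56 and 7.44 in the pools of VD(+) HSC recipients. All VD(−) arrays but replicate 1 lay above all VD(+) arrays. The log2 difference was 0.124 (SE 0.068, limma adjusted p = 0.752), and the exact permutation p was 0.0476. Without VD(−) replicate 1 the difference was 0.163, under an unadjusted limma p of 0.05 but with an adjusted p of 0.707. Only that 1 of the 10 fits that left out 1 array each passed, and they spanned 0.091 to 0.163. The second Eed probe set was dim, at 3.77 ± 0.11 in VD(−) and 3.70 ± 0.22 in VD(+) HSC recipients (SD, n = 5 each), and its difference was 0.076.

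The histone-binding subunits also overlapped between the groups. Rbbp4 spanned 8.43 to 8.54 in the VD(−) arrays and 8.33 to 8.53 in the VD(+) arrays, with a difference of 0.049 (SE 0.063, limma adjusted p = 0.903). Rbbp7, which is X-linked, spanned 9.22 to 9.45 in the VD(−) arrays and 9.10 to 9.28 in the VD(+) arrays, with a difference of 0.075 (SE 0.069, limma adjusted p = 0.853). Its highest arrays were both VD(−) pools, and without the 3 VD(−) arrays with Y-linked signal the difference was −0.0054. A second Rbbp7 probe set gave 0.12 (SE 0.068, limma adjusted p = 0.766, exact permutation p = 0.0476).

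Among the accessory subunits, Mtf2, which binds CpG-rich DNA, read 7.92, 7.98 and 7.93 in replicates 1 to 3 and 8.08 and 8.04 in the pools of VD(−) HSC recipients, against 7.68, 7.90 and 7.95 in replicates 1 to 3 and 7.90 and 7.82 in the pools of VD(+) HSC recipients. Only VD(+) replicate 3 lay inside the VD(−) range, and VD(+) replicate 1 was the lowest of the 10. The log2 difference of 0.14 (SE 0.071) had the smallest limma p of the members (adjusted p = 0.738), and the exact permutation p was 0.0238. Without VD(+) replicate 1 the difference was 0.097 (limma adjusted p = 0.877), the lowest of the 10 fits that left out 1 array each, which reached 0.165. The smallest difference limma would have called was 0.156 unadjusted and 0.462 adjusted.

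Aebp2 had the widest spread, with 5.72, 5.55 and 5.99 in replicates 1 to 3 and 5.55 and 6.03 in the pools of VD(−) HSC recipients, against 5.72, 5.81 and 5.86 in replicates 1 to 3 and 5.80 and 5.60 in the pools of VD(+) HSC recipients. The VD(−) arrays enclosed all 5 VD(+) arrays, the difference was 0.011 (SE 0.11, limma adjusted p = 0.992), and only one of at least 0.72 would have passed the adjusted p. Phf19, the relative of Mtf2, averaged 4.57 ± 0.10 in VD(−) and 4.58 ± 0.05 in VD(+) HSC recipients (SD, n = 5 each), below the median of every array (4.74 to 4.80), with a difference of −0.0071 (SE 0.068, limma adjusted p = 0.992).

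By exact permutation and by the methods' t-test, the same 3 members passed an unadjusted p of 0.05, Jarid2 being lower and Eed and Mtf2 higher in VD(−) HSC recipients. Over all probe sets 6.87% passed the permutation test and 6.97% the methods' t-test. No member met the thresholds of the methods with their ratio bounds as well, which 5.18% of all probe sets met, or had all arrays of one group above all of the other, as 1.55% had. For an unadjusted call the smallest differences ran from 0.123 for Jarid2 to 0.243 for Aebp2, and for an adjusted call from 0.363 to 0.72. The SD was larger in the VD(−) arrays for 7 of 10 members and for 48.9% of all probe sets.

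Members also moved together from array to array. With group means taken off, Mtf2 correlated with Rbbp4 (r = 0.88) and Rbbp7 (r = 0.83), and Rbbp7 correlated with Ezh2 (r = 0.74) and inversely with Ezh1 (r = −0.74), over 10 arrays that share their normalization. VD(+) replicate 1 was the lowest of all 10 arrays for 3 members and the lowest of its group for 5. VD(−) pool 1 was the highest of all 10 arrays for 4 members. The mean level of the 10 members was nonetheless narrow, 7.63 to 7.69 in the VD(−) arrays and 7.59 to 7.68 in the VD(+) arrays.

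Among 10160 genes brighter than the median of all probe sets, those most like Jarid2 from array to array, by Pearson correlation over the 10 arrays with group means taken off, were Flvcr1, a choline and heme transporter (r = 0.95), Hvcn1, a proton channel (r = 0.95), and Scly, a selenocysteine lyase (r = 0.92). Those most like Ezh2 were Tra2b, a splicing factor (r = 0.97), Abcg2, a drug exporter of stem cells and erythroid precursors (r = 0.95), and Taf1, a subunit of general transcription factor TFIID (r = 0.94). With group means left in, r was 0.38 for Flvcr1, 0.47 for Hvcn1 and 0.52 for Scly with Jarid2, and 0.94 for Tra2b, 0.92 for Abcg2 and 0.95 for Taf1 with Ezh2. These are descriptions picked as the highest of many.

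**Figure D4:**
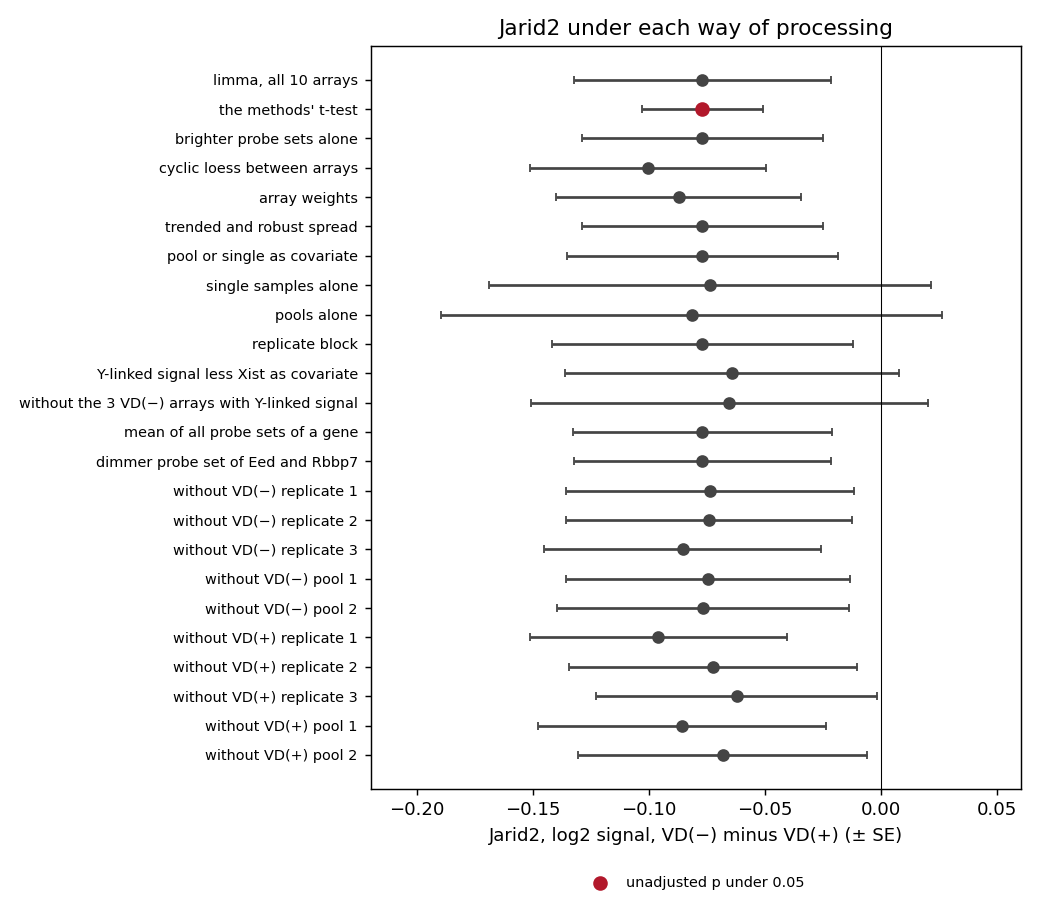
Log2 difference of Jarid2, VD(−) minus VD(+) (x axis, ± SE), under each way of processing or selecting the arrays (y axis). All points are below 0, between −0.10 and −0.062, and only that of the methods' t-test, in red, has an unadjusted p under 0.05.

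Of 5 other PRC2 subunits (Phf1, Epop, Lcor, Lcorl and Ezhip), 0 passed an unadjusted limma p of 0.05, beside 7.09% of all probe sets. Their median difference was −0.052. Phf1, the third relative of Mtf2 and Phf19, had 6.47, 6.29, 6.88, 5.99 and 6.48 in VD(−) replicates 1 to 3 and pools 1 and 2, against 6.34 to 6.66 in the VD(+) arrays. Its difference of −0.079 (SE 0.142) lay within a spread that enclosed all VD(+) arrays. Epop, a partner of Mtf2-type complexes, had the smallest p of these, with a difference of 0.103 (limma adjusted p = 0.845).

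Of the demethylases that remove the PRC2 mark, Kdm6a passed the unadjusted limma p and Kdm6b did not. Kdm6a, which is X-linked and escapes X inactivation, read 7.09, 7.63 and 7.87 in replicates 1 to 3 and 7.22 and 7.58 in the pools of VD(−) HSC recipients, against 7.71 to 7.99 in the VD(+) arrays. The 3 lowest of the 10 were the 3 VD(−) arrays with Y-linked signal. Its log2 difference was −0.386 (SE 0.14, exact permutation p = 0.0238, limma adjusted p = 0.608) in the fit of all arrays, −0.083 with Y signal minus Xist as covariate, and −0.112 without those 3 arrays. Kdm6b had a difference of −0.06 (SE 0.142, limma adjusted p = 0.957), with 6.17 to 6.87 in the VD(−) arrays and 6.38 to 6.90 in the VD(+) arrays.

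In related complexes few of the genes of each list passed the unadjusted limma p, and the whole table had 3.85% higher and 3.23% lower in VD(−) HSC recipients at that threshold. Of 5 genes of PR-DUB, which removes the ubiquitin mark of PRC1, Foxk1 alone was lower, with a difference of −0.27 (exact permutation p = 0.0238, limma adjusted p = 0.579), with 6.18 to 6.61 in the VD(−) arrays and 6.50 to 6.77 in the VD(+) arrays. Its difference was −0.118 with Y-linked signal less Xist as covariate and −0.137 without the 3 VD(−) arrays with Y-linked signal (limma adjusted p = 0.864 and 0.932), and it passed the unadjusted limma p in neither fit. Kdm5a, Kdm5b and Kdm5c, active demethylases related to Jarid2, had negative differences with a median of −0.191. Kdm5d, the Y-linked gene of that family, was kept apart and had a difference of 1.90 (limma adjusted p = 0.598). The mean log2 signal of Kdm5a, Kdm5b and Kdm5c was 7.33, 7.55 and 7.57 in replicates 1 to 3 of VD(−) HSC recipients. It was 7.21 and 7.47 in their pools 1 and 2, against 7.53 to 7.74 in the VD(+) arrays. It was thus lowest in the 3 VD(−) arrays with Y-linked signal and within the VD(+) range in the other 2. Kdm5c, whose gene is on the X chromosome, read 6.77 and 6.70 in VD(−) replicate 1 and pool 1 and 7.20 to 7.45 in the other VD(−) arrays, against 7.16 to 7.48 in the VD(+) arrays, and what the Y-linked arrays contributed to the values of Kdm5b and Kdm5c was not tested. Of Kdm5a, Kdm5b and Kdm5c only Kdm5a passed the unadjusted limma p, at −0.167 (exact permutation p = 0.0159, limma adjusted p = 0.671). Kdm5a read 7.95 to 8.15 in the VD(−) arrays and 8.13 to 8.35 in the VD(+) arrays. Its difference was −0.242 without the 3 arrays with Y-linked signal, and it passed the unadjusted limma p in 5 of 10 fits that left out 1 array each.

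Of 18 genes of the other complexes that use Rbbp4 or Rbbp7 (NuRD, Sin3 and CAF-1), 1 was higher and 0 lower. It was Sap30 of the Sin3 complex, with 8.66 to 8.85 in the VD(−) arrays, all above the 8.34 to 8.64 of the VD(+) arrays, and a difference of 0.224 (exact permutation p = 0.00794, limma adjusted p = 0.546). Of all probe sets 1.55% had arrays that did not overlap between the groups. Among 7 measured methyltransferases of lysines 36 and 4 of histone H3, 0 passed, and Nsd2 had the smallest p with a difference of 0.144 (limma adjusted p = 0.741).

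Genes that PRC2 is known to silence were mostly near or below the array median. None passed the unadjusted limma p, which only 7.09% of all probe sets passed, so lists this short could hold few calls or none. Of 8 targets in blood cells 7 had a mean below the array median, and their median difference was −0.02. Hmga2, a chromatin protein of fetal HSCs, had the smallest p with a difference of 0.238 (limma adjusted p = 0.747), and VD(+) replicate 1 was its lowest array at 4.08. Without that array the difference was 0.126 (limma adjusted p = 0.885). Of 11 measured targets of other lineages 10 had a mean below the array median, with a median difference of 0.0029, and the smallest p was that of Foxa2 (0.122, limma adjusted p = 0.823).

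**Figure D5:**
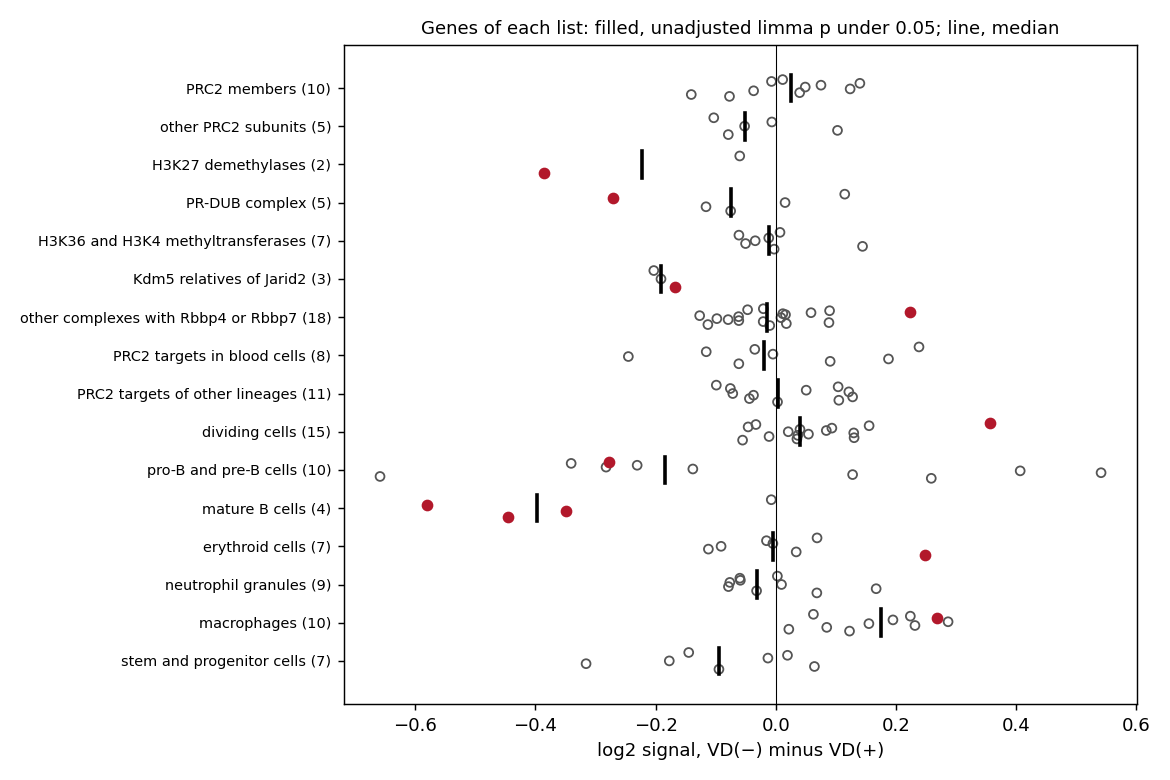
Log2 difference, VD(−) minus VD(+) (x axis), of each gene of the PRC2 list and 15 related lists or marker lists (y axis, with the number of measured genes), filled points having an unadjusted limma p under 0.05 and black lines marking medians. No PRC2 point is filled, the PRC2 median is at 0.026, and the mature B cell list has 3 of 4 genes filled, all below 0. Of all probe sets 3.23% were lower at that p.

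The marrow label was checked by markers of its cells. Mean levels over the genes of each list spanned 11.29 to 11.60 for neutrophil granule genes, 9.66 to 9.99 for erythroid genes and 9.19 to 9.28 for genes of dividing cells in the VD(−) arrays. In the VD(+) arrays they spanned 11.35 to 11.54, 9.73 to 9.89 and 9.11 to 9.21 for the same lists. Alb, Myh6, Ins2 and Krt5, which marrow should lack, averaged 3.44 to 3.60 in the VD(−) and 3.42 to 3.59 in the VD(+) arrays. Macrophage genes averaged 7.74 to 8.22 in the VD(−) and 7.49 to 7.89 in the VD(+) arrays, so that genes of several marrow lineages were present in every array.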

How the data were processed

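Gene expression was measured on 10 arrays of recipient BM RNA. The deposited values are log2 signals, which the authors made in Partek with RMA, per the submitters' processing notes and the methods. RMA corrects background and brings the arrays to one distribution, so that a shift shared by most genes would not be seen. By the platform annotation the probe sets are those of a mouse gene array for whole transcripts, although the methods describe a miRNA array. The genome build behind the probe sets and any filter were not given in the sources used here. Array medians were 4.74 to 4.80, and the number of arrays limits the precision.

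Of 35556 probe sets, 21789 list 1 gene, 1621 several and 12146 none. All probe sets were fitted in R 4.3.3 with limma 3.58.1 (lmFit, eBayes), VD(−) minus VD(+), two-sided, with Benjamini-Hochberg adjustment over all of them. The smallest callable difference is the moderated SE times the t value at the threshold. The methods' t-test and exact permutation of 5 arrays against 5 were run on the same values. Promoters were read in Python 3.11.15 with pandas 2.3.3. The fit was tested on simulated data. The members and lists were chosen with earlier results of these data known. Besides the members, the text names of each list the genes with an unadjusted p under 0.05, or else the smallest p, and Phf1, Kdm6a and Kdm6b. Vpreb1 was chosen after its values were seen.

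Alternatives were the methods' t-test, brighter probe sets alone, cyclic loess, array weights, a trended and robust spread, pool or single as covariate, single samples or pools alone, a replicate block, Y-linked signal less Xist as covariate, leaving out the 3 VD(−) arrays with Y-linked signal, a gene's probe sets averaged, and each array left out in turn. The dimmer probe set of Eed and Rbbp7 was added after seeing the data.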

Additional observations from a re-analysis of the deposited data

Results flagged for a closer look

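In each group of 5 arrays the array farthest from the rest was looked at by Dixon's ratio, its gap to the nearest array over the range of the group, with a critical value of 0.71. Of 58 groups, for 29 genes, 9 had such an array, where chance gives about 1 in 20. Among the members, Jarid2 stood apart in VD(−) replicate 3 at 7.65, the only VD(−) array that reached into the VD(+) range. Rbbp4 stood apart in VD(−) replicate 1 at 8.43, the lowest of its group. VD(+) replicate 1 held 5 of the 9, all low, namely Ezh2 at 8.83, Rbbp7 at 9.10, Tyms, an enzyme of thymidine synthesis, at 7.65, Hmga2 at 4.08 and Cd68, a lysosomal protein of macrophages, at 8.46. Epop was low in VD(−) pool 1 at 4.72, and Cd22, a B cell surface receptor, in VD(−) replicate 2 at 6.56. Their causes were not tested.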

How the results depend on the processing

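Jarid2 was lower in VD(−) HSC recipients under all 23 alternatives, between −0.10 (cyclic loess) and −0.062 (without VD(+) replicate 3), with adjusted p between 0.646 and 0.99. Several of these could not change its sign, and 2 leave its probe set as it is. The methods' t-test, brighter probe sets alone, the trended and robust spread, the pool covariate and the replicate block keep its difference at −0.077 by design. Fits that left out 1 array share most of their arrays. The unadjusted p of Jarid2 was under 0.05 in 1 of the 23, the methods' t-test. That test passed 3 members in place of 0, and 9 in place of 42 of all probe sets after adjustment. The number of members past the unadjusted p was 0 to 1 when each array was left out, with Eed passing without VD(−) replicate 1 and Ezh1 without VD(−) replicate 2, and 0 members passed an adjusted p under any of the 23. The median difference of the members was 0.071 in the pools alone, and 0.0075 to 0.057 when each array was left out.

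Some members that passed no test changed sign. Ezh1 turned to 0.016 and Rbbp7 to −0.0054 without the 3 VD(−) arrays with Y-linked signal, and Ezh2 to −0.044, or −0.045 with that signal as covariate. Suz12 turned to 0.066 in the pools alone. Phf19 turned to 0.0051 with array weights, 0.0198 with the covariate and 0.013 without the 3 arrays. Aebp2 turned to −0.00297 with cyclic loess and −0.042 in single samples. When each array was left out, Suz12 spanned −0.075 to 0.0014, Phf19 −0.045 to 0.021 and Aebp2 −0.055 to 0.066. Of the other genes, Phf1 turned to 0.042 in single samples, 0.095 with the covariate and 0.083 without the 3 arrays, Kdm6b to 0.191 and 0.188 in the last 2 fits, and Epop to −0.126 in the pools. When each array was left out Phf1 spanned −0.193 to 0.028 and Kdm6b −0.146 to 0.029. Fcer2a, the one gene named with an adjusted p under 0.05, was above it under 16 of 21 alternatives (0.0131 to 0.921), with its direction kept in all 21.

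The labels do not say whether replicate numbers pair the samples. Deviations of same-numbered arrays correlated between −0.052 and 0.061, and only number 2 matched its own best. Such low correlations show no pairing in the values, but they cannot show that the samples were unpaired. With a replicate block Jarid2 stayed at −0.077 and 0 members passed. The brightness of Phf19 and of the second Eed probe set limits what can be read from them.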

Other observations

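Outside PRC2, 3 of 4 measured genes of mature B cells were lower in VD(−) HSC recipient BM at an unadjusted limma p under 0.05. Over all probe sets 3.23% were lower at that p, and 1.55% had arrays that did not overlap between the groups. Cr2, the remaining gene of the list, differed by −0.0075 (limma adjusted p = 0.996). Fcer2a, the low-affinity IgE receptor of mature B cells, had 5.65 to 5.90 in the VD(−) arrays, all below the 6.24 to 6.58 of the VD(+) arrays, a log2 difference of −0.581 (SE 0.081, limma adjusted p = 0.0305), which was the only adjusted call among the genes named here. Ms4a1, which encodes CD20, differed by −0.445 and Cd22 by −0.349, with limma adjusted p of 0.521 and 0.683. Cd22 passed the unadjusted limma p in 6 of 10 fits that left out 1 array each. Of 10 measured genes of pro-B and pre-B cells 4 had positive and 6 negative differences, with a median of −0.184. The positive ones were Igll1 (0.541), Vpreb1 (0.407), Dntt (0.259) and Rag2 (0.128). The negative ones were Rag1 (−0.659), Ebf1 (−0.341), Cd79a (−0.282), Pax5, Cd79b (−0.231) and Vpreb3 (−0.138), so the list did not move as a whole. Only 1 gene of the list passed the unadjusted limma p. That was Pax5, the B lineage transcription factor, which differed by −0.277 (limma adjusted p = 0.684). Without VD(−) replicate 2 it differed by −0.17, and it passed in 3 of the 10 fits.

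All 10 measured macrophage genes had positive differences, with a median of 0.175, beside 17464 of all 35556 probe sets above 0. These genes share their arrays, so their directions are not separate observations. Their mean lay above the VD(+) range of 7.49 to 7.89 only in VD(−) replicate 1, at 7.98, and VD(−) pool 1, at 8.22. Both arrays carried Y-linked signal, and what that contributed was not tested. VD(−) replicates 2 and 3 and pool 2 lay inside the range, at 7.80, 7.74 and 7.82. Only Cd68 passed the unadjusted limma p, where 3.85% of all probe sets were higher. Cd68 differed by 0.268 (exact permutation p = 0.00794, limma adjusted p = 0.482), with 8.83 to 9.04 in the VD(−) arrays and 8.46 to 8.75 in the VD(+) arrays. Of 15 measured genes of dividing cells 11 had positive and 4 negative differences, with a median of 0.040, and 1 passed the unadjusted limma p. That was Tyms, which differed by 0.356 (limma adjusted p = 0.629), or by 0.218 without VD(+) replicate 1, and passed in all 10 fits that left out 1 array each. Of 7 measured erythroid genes 3 had positive and 4 negative differences, with a median of −0.0048. Klf1, an erythroid transcription factor, was the one that passed, with a difference of 0.249 (limma adjusted p = 0.673), and it did so in 2 of the 10 fits. Neither gene passed with Y-linked signal less Xist as covariate, where Tyms differed by 0.328 and Klf1 by 0.228, or without the 3 VD(−) arrays with Y-linked signal. Of the neutrophil granule and stem cell lists no gene passed, and the smallest p were those of Prtn3, a granule protease (0.167, limma adjusted p = 0.806), and Flt3, a receptor of early progenitors (−0.316, limma adjusted p = 0.722).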
